A study of Drosophila melanogaster with 2 samples.

Results

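Binding of E(spl)mδ-HLH was examined at 10 genes that make, modify, cleave or move the Notch receptor and its ligands, out of 13945 protein-coding genes on the main chromosome arms. They were taken by function, and the peaks assigned to them were those whose summit (the position of highest enrichment) lay in the gene or within 5 kb of it. The genes were N, Delta (Dl in older annotation), Ser, fng, kuz, Psn, neur, mib1, dx and Su(dx). Of the 2750 peaks in the authors' thresholded list, 15 met this rule, and none was counted for more than 1 of the genes.

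The data came from 1 group of 2 biological replicates, per the labels. Chromatin was prepared from Drosophila melanogaster embryos aged 2 to 12 h, of mixed sex, that stably carried a transgene for the fusion of E(spl)mδ-HLH with GFP at its C-terminus (strain E(spl)m-delta-GFP). All samples carried the fusion, so no untagged or signal-deprived group stands beside them, and a further file from which all peak lists were derived, listed apart from both samples, was read as their control. Whole embryos were used, so binding in few cells and weak binding in many cannot be told apart. A free-text label calls both samples input control, whereas the antibody label names HLHmδ and a control is listed elsewhere, so they were read as immunoprecipitated. The depth of each library is unknown, since the lists hold no read counts.

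Notch is a transmembrane receptor that is activated by ligands on neighbouring cells. The ligand must be ubiquitinated and taken up by the cell that presents it, and the receptor is then cut by a surface metalloprotease and by γ-secretase, which frees an intracellular fragment that enters the nucleus. E(spl) genes are among the direct targets of that fragment, and their products are basic helix-loop-helix (bHLH) repressors. The genes below thus encode components that act ahead of the factor. In the embryo this pathway is best known for limiting the number of neural precursors in the neuroectoderm.

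The sequence is shown for 3 summits in the first intron of neur, 1 in an intron of N and 1 in a coding stretch of mib1. These windows lie outside annotated UTRs, and they were picked because several hold short motifs of bHLH factors. The windows of both fng summits and of the Delta summit beyond its 3′ end also lie outside UTRs. Those windows held no match and are not printed. Of all 15 windows, 7 held a match to a motif searched, beside 44.0% of all thresholded windows. Each line gives 50 bp on either side of the summit, 5′ to 3′ on the strand of the gene, from the Release 6 genome (dm6). Capitals mark matches to any of the 8 motifs searched, on either strand.
neur first intron, strongest peak (chr3R:9024965-9025065, minus strand): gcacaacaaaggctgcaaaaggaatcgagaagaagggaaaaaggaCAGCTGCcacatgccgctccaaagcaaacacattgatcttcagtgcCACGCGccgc
neur first intron, second peak (chr3R:9027189-9027289, minus strand): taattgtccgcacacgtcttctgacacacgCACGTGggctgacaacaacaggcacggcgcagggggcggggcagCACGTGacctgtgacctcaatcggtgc
neur first intron, weakest peak (chr3R:9024167-9024267, minus strand): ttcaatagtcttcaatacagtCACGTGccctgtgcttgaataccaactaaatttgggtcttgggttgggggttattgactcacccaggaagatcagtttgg
N first intron (chrX:3136879-3136979, plus strand): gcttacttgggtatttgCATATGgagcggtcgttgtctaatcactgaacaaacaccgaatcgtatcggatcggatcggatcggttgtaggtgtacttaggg
mib1 first exon (chr3L:16011443-16011543, minus strand): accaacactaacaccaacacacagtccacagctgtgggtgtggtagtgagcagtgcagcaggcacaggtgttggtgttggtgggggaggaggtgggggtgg

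The 100 bp before the transcription start site (TSS) are shown for the receptor, the ligand Delta and neur, each of which had a summit within 7 bp of that TSS. Capitals have the same meaning.
N (chrX:3134770-3134869, plus strand): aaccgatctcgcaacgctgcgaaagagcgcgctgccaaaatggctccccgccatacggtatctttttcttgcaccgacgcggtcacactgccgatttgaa
Delta (chr3R:19326218-19326317, minus strand): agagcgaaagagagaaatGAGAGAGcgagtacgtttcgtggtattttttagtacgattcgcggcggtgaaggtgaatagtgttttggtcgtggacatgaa
neur, internal start site (chr3R:9033732-9033831, minus strand): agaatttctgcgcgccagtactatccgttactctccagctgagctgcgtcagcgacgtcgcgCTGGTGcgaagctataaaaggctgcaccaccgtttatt

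Of the 10 genes, 7 had a thresholded summit, namely N, Delta, fng, kuz, neur, mib1 and dx. Ser, Su(dx) and Psn had none. Among all protein-coding genes the share was 30.4% (4233 of 13945, exact binomial 95% interval 29.6 to 31.1). The windows of these genes held 2624 summits, so neighbouring windows shared some of them. The interval takes genes as independent and is likely too narrow. Long windows offer more room for a summit. Among the 5703 genes whose windows were as long as those of the 10 genes, 12.7 to 99.3 kb, the share was 39.8%. The 6 genes longer than 15 kb (N, Delta, Ser, fng, kuz and neur) had a summit in 5 cases, against 51.7% of genes over the same span of window lengths. They carried 2.0 peaks per gene, against a mean of 1.12. The 4 shorter genes had a summit in 2 cases, at mib1 and dx, against 33.3% of genes of their span. These are descriptions of 1 list, without a test, and members were chosen by function.

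**Figure D1:**
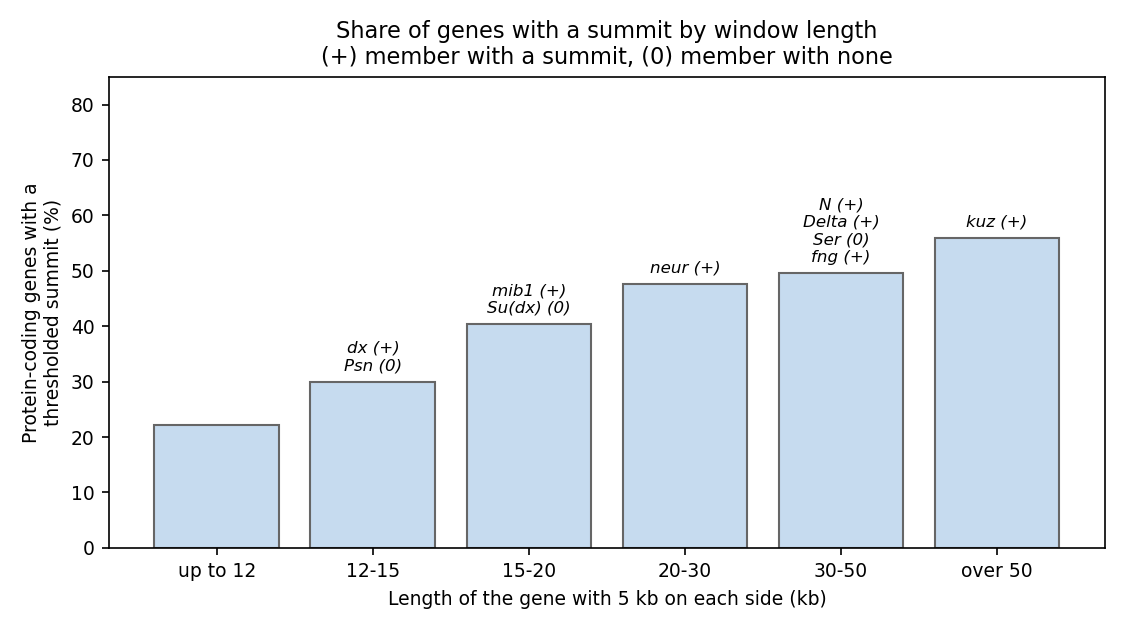
Bars give the percent of protein-coding genes with at least 1 thresholded summit in the gene or within 5 kb of it, by the length of that window in kb, and the 10 genes are written above the bar of their length with (+) for a summit and (0) for none. The share rises from 22.2% in the shortest windows to 56.0% in windows over 50 kb, and the 3 genes with none fall in 3 different length classes.

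The receptor gene N (FBgn0004647, X 3134870 to 3172221, plus strand) had 2 peaks at its 5′ end. The stronger one (X 3134741 to 3134990) had its summit 4 bp upstream of the TSS. Its signal, the authors' enrichment value per peak, was 206 in the thresholded list, 117 in the list of replicate 1 and 83.9 in that of replicate 2. Signals are on a scale of their own in each list, whereas ranks can be compared because the pooled list and both replicate lists hold 30000 peaks each. By their deposited names, the pooled and replicate lists hold peaks and background. Their weaker entries, called peaks here, may thus be background and are not shown to be bound. By rank the stronger N peak stood at 798, 943 and 925, so the replicates placed it almost alike.

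The second N peak (X 3136804 to 3137053, signal 148) lay 2059 bp into the gene, in intron 1 of 8 of the canonical transcript. It ranked 1654 in the thresholded list, 1098 in replicate 1 and 3671 in replicate 2, so replicate 2 placed it well lower. Its window held a CATATG, an E-box form, shown in capitals above. Beyond these, the pooled list had 19 weaker peaks in the N window, with 8 of them over coding exons between 28.8 and 34.2 kb from the 5′ end. Those 8 ranked 7551 to 25596, and 3 of the 8 overlapped a peak in both replicate lists.

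Delta (FBgn0000463, 3R 19302731 to 19326217, minus strand), the gene of the main embryonic ligand, had the strongest of the peaks that lay at a start site of the gene itself. It covered 3R 19326085 to 19326334 with a signal of 263, and the summit was in exon 1, 7 bp downstream of the TSS. It ranked 414 in the thresholded list, 377 in replicate 1 with a signal of 167, and 606 in replicate 2 with a signal of 97.9. The other Delta peak (3R 19298260 to 19298509, signal 143, rank 1802) lay 4346 bp beyond the 3′ end of Delta and 690 bp from the TSS of CG44174. It ranked 1938 and 2378 in replicates 1 and 2. A weaker intronic peak 8825 bp from the Delta TSS ranked 1497 in replicate 2, 12620 in replicate 1 and 4567 in the pooled list, so it stood high in 1 replicate alone.

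Ser (FBgn0004197, 3R 27172090 to 27194267, minus strand), the gene of the other ligand, had no thresholded summit, and its best peak depended on the replicate. The strongest pooled peak of its window (3R 27193997 to 27194246, signal 94.6, rank 4031) lay 127 bp upstream of 1 of its 2 start sites. In replicate 2 the overlapping peak ranked 1349 with a signal of 71.4, whereas in replicate 1 it ranked 10480 with a signal of 37.0. In the first 2750 peaks of replicate 2 alone, 8 of the 10 genes had a summit, Ser among them, and in those of replicate 1 alone 7 had.

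The gene fng (FBgn0011591, 3L 20925891 to 20949512, minus strand) encodes the glycosyltransferase that extends O-linked fucose on Notch and changes its response to the ligands. Its best peak ranked lowest among the best peaks of the 7 genes. A peak 5135 bp into the gene, in intron 1 of 6 (3L 20944252 to 20944501, signal 144), ranked 1783 in the thresholded list, 1531 in replicate 1 and 2675 in replicate 2. A peak 3232 bp beyond the 3′ end (3L 20922534 to 20922783, signal 140) ranked 1911, 1277 and 3809. The replicate 2 peak at rank 3809 was the strongest that overlapped it, with a summit 179 bp away, while a weaker one at rank 7617 had its summit 21 bp away. Neither summit was within 2 kb of the fng TSS, and the nearest TSS to the second was that of CG10589, 5167 bp away. Among the strongest 1375 peaks of the thresholded list fng had none.

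**Figure D2:**
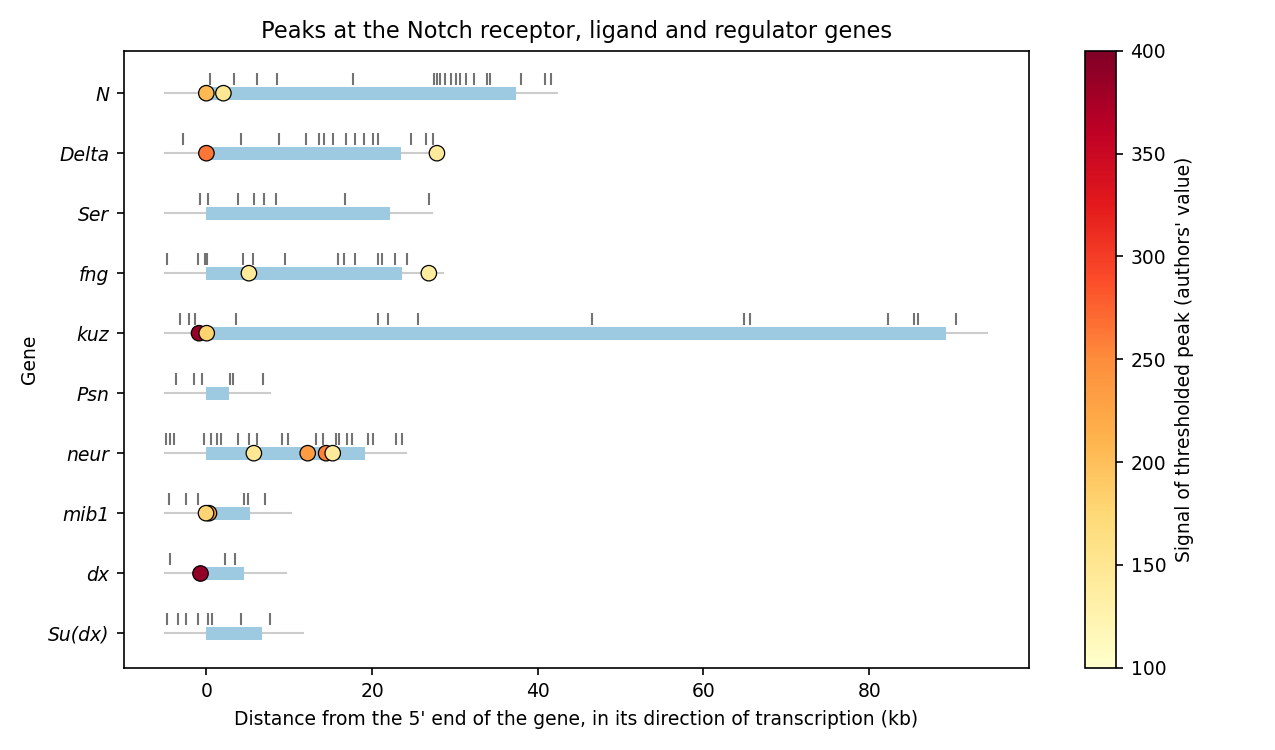
Each row is a gene drawn to scale as a bar from its 5′ end (0 on the axis, in kb, running in the direction of transcription) with a thin line for the 5 kb on each side; circles are thresholded summits coloured by signal, and ticks above are summits of weaker pooled peaks. The circles of N, kuz, mib1 and dx sit at or near the 5′ end. Delta has a circle there and another beyond its 3′ end, and fng has a circle inside and another beyond its 3′ end. In neur 4 sit inside the gene, 5733 to 15254 bp from its 5′ end.

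The 2 strongest of the 15 peaks, at dx and kuz, lay at the start sites of neighbouring genes. The kuz gene (FBgn0259984, 2L 13550139 to 13639411, plus strand) encodes the ADAM metalloprotease that makes the first activating cut in Notch. The strong peak of its window (2L 13549224 to 13549306, signal 386, rank 136) was 884 bp upstream of kuz and 73 bp from the TSS of B4, whose gene it overlapped. It ranked 181 in replicate 1 and 104 in replicate 2. A second peak (2L 13550060 to 13550309, signal 181, rank 1082) had its summit 46 bp downstream of the TSS of kuz itself and a CACGCG within 50 bp. It ranked 920 in replicate 1 and 1527 in replicate 2. No thresholded peak lay over the remainder of this gene of 89.3 kb, and its 16 pooled peaks equalled the median of 16 for genes with windows within a factor of 1.25 of its own.

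The dx gene (FBgn0000524, X 6533999 to 6538575, plus strand) encodes Deltex, a ubiquitin ligase that acts on Notch trafficking. Its single peak (X 6533187 to 6533339, signal 388, rank 135) was 738 bp upstream of dx and 5 bp from the TSS of RpL7A, a gene of the large ribosomal subunit. It ranked 125 in replicate 1 with a signal of 251 and 239 in replicate 2 with a signal of 135. The gene body of dx held no thresholded summit, and its best weaker pooled peak ranked 10117. Counted only for the gene with the nearest TSS, dx had no peak. The gene of a second trafficking regulator, Su(dx) (FBgn0003557, 2L 2037714 to 2044372, plus strand), a HECT-type ubiquitin ligase, had no thresholded summit. Its best pooled peak (2L 2037822 to 2038071, rank 5685) was 233 bp from a TSS of its own and ranked 7265 in replicate 1 and 10938 in replicate 2. The best replicate 2 peak of the Su(dx) window was another, in exon 5 of 7, at rank 3787 with a signal of 45.9. It overlapped no replicate 1 peak, and the pooled peak there ranked 9678.

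Psn (FBgn0284421, 3L 20432468 to 20435156, plus strand), which encodes presenilin, the catalytic subunit of γ-secretase, was the gene with the lowest best rank. Its best pooled peak (3L 20431766 to 20432015, signal 56.1) ranked 12096, and its summit was 577 bp upstream of the gene and 470 bp from the TSS of Las. The overlapping peaks ranked 17373 in replicate 1 and 23829 in replicate 2. The best replicate 2 peak of the Psn window was another, at rank 7896. It lay 533 bp beyond the 3′ end of Psn and 520 bp from the TSS of mRpL15. It overlapped no replicate 1 peak, and the pooled peak there ranked 27270.

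The neur gene (FBgn0002932, 3R 9020348 to 9039471, minus strand) had the most peaks. It encodes Neuralized, a ubiquitin ligase that drives uptake of Delta and is known as a gene switched on in neural precursors. It had 4 thresholded summits, all inside the gene. Of 754 genes with windows within a factor of 1.25 of its length, 4.77% had as many, and their mean was 0.935. In the pooled list it had 26 peaks, against a median of 8, and 0.663% of those genes had as many. Replicate 1 had 26 peaks in the same window and replicate 2 had 20. In that window the next genes, hyx and tgo, also begin. For most of the 26 pooled summits the nearest TSS was that of another gene, mainly tgo or hyx.

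The strongest neur peak (3R 9024969 to 9025064, signal 258) lay in intron 1 of 2 of the canonical transcript, 8716 bp from its TSS. It ranked 437 in the thresholded list, 499 in replicate 1 and 465 in replicate 2, with summits at the same base in all 3 lists. The second (3R 9027114 to 9027363, signal 236, rank 552) was 2224 bp from it in the same intron and ranked 841 and 362. Another intronic peak (3R 9024092 to 9024341, signal 143, rank 1811) was 798 bp from the first and ranked 1486 and 2944. The nearest TSS to the strongest and to this one was that of tgo, at 4993 and 4195 bp, a gene for a bHLH-PAS protein. The last peak (3R 9033613 to 9033862, signal 149, rank 1643) had its summit 7 bp upstream of the internal start site of neur. Replicate 1 ranked it 1297 and replicate 2 ranked it 8821, a ratio of 6.80 and the largest among the 15 peaks. The first 2 peaks thus kept a place among the first 841 in each replicate, while the promoter peak was high in replicate 1 alone.

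The mib1 gene (FBgn0263601, 3L 16006552 to 16011812, minus strand) encodes Mind bomb, the other ubiquitin ligase for Notch ligands. It had 2 peaks whose summits were 356 bp apart at its 5′ end. The stronger (3L 16011368 to 16011617, signal 237, rank 541) was 319 bp downstream of a TSS and ranked 1156 in replicate 1 and 216 in replicate 2. The weaker (3L 16011724 to 16011973, signal 179, rank 1098) was 37 bp upstream and ranked 1406 and 982. The replicates thus kept the order of the pair of peaks, and differed more over the stronger. Of 4751 genes with windows of like length, 11.0% had at least 2 summits.

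**Figure D3:**
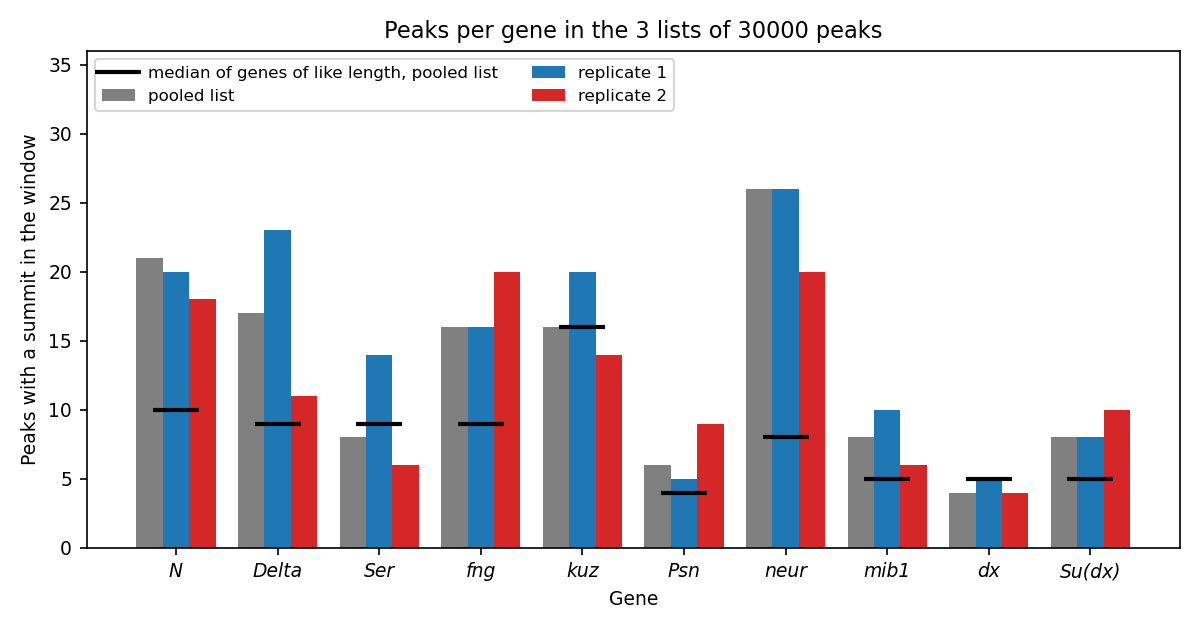
Bars give, for each gene, the number of peaks with a summit in the gene or within 5 kb in the pooled list and in each replicate list, all of 30000 peaks, and the black line is the median of the pooled list over genes of like window length. neur stands at 26, 26 and 20 over a median of 8, and N at 21, 20 and 18 over 10, while Ser, kuz and dx are at or under their medians in the pooled list.

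Each of the 15 peaks shared at least 1 bp with a peak of either replicate, as did 99.3% of all thresholded peaks. Of the 15, 11 were within the first 2750 of both replicates (73.3%), against 61.7% of all thresholded peaks. The other 4 were within the first 2750 of replicate 1 alone. They were the N intron, the neur promoter, the weakest neur intron and the peak beyond fng. Among all thresholded peaks 599 were high in replicate 1 alone and 408 in replicate 2 alone. The rank in 1 replicate was a median of 1.75 times that in the other over the 15 peaks, and 1.92 times over all thresholded peaks. The median signal of the 15 was 181, and that of all 2750 was 162.

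**Figure D4:**
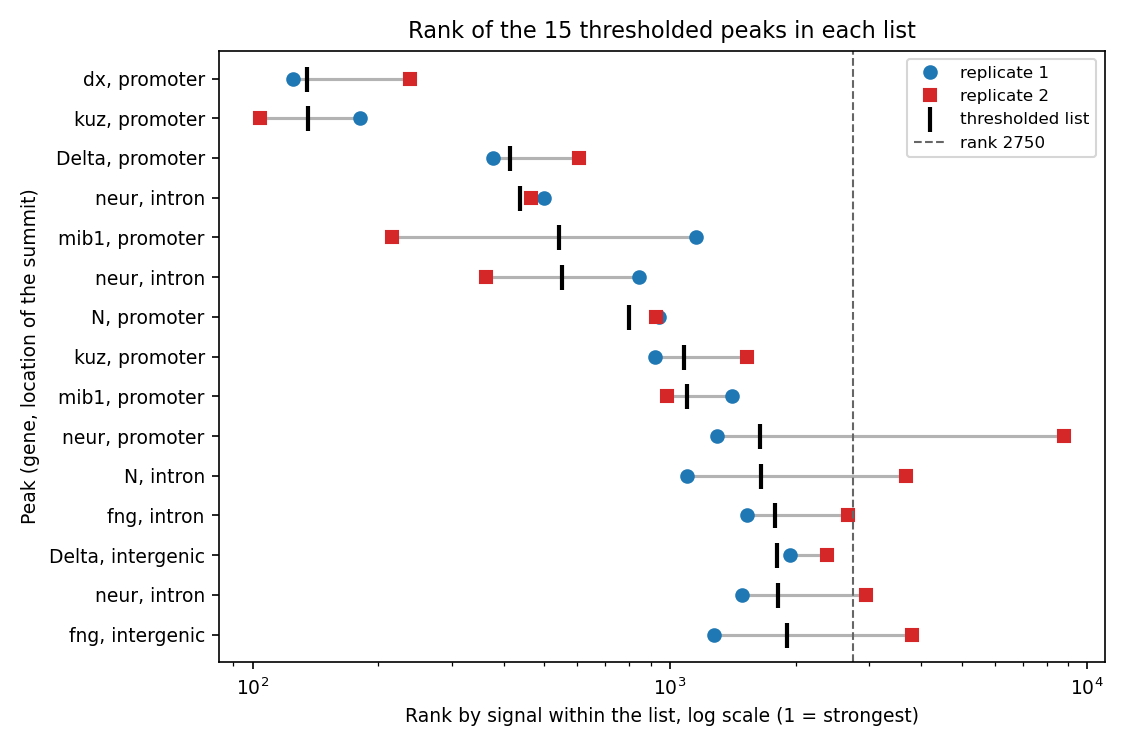
Each row is 1 of the 15 peaks, in order of its rank in the thresholded list (black bar), with its rank in replicate 1 (blue circle) and replicate 2 (red square) on a log axis and a dashed line at rank 2750. All circles lie to the left of the line, and 4 squares lie to its right, the farthest at 8821 for the neur promoter.

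Each summit was given 1 location, and those at most 500 bp from the TSS of a protein-coding gene were called promoter summits. By this definition 8 of the 15 summits were in promoters, 5 in introns and 2 between genes, beside 55.4%, 25.7% and 13.0% of all thresholded summits. Of the 8 promoter summits, 6 were at a start site of the gene itself and 2 at that of a neighbour. The nearest TSS belonged to the gene itself for 9 of the 15. The density of thresholded summits over the 334 kb of the 10 windows was 44.9 per Mb, against 23.6 per Mb over the windows of all protein-coding genes.

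The 10 windows held 130 pooled peaks, of which 11.5% were thresholded, beside 9.17% of the pooled list. Of the 115 weaker ones, 52 (45.2%) overlapped a peak in both replicate lists, and among all weaker pooled peaks the share was 40.5%. Coding exons held 33.9% of the 115 and 23.9% of all weaker pooled peaks, though the latter were not limited to gene windows. None of the 15 thresholded summits was in a coding exon outside promoters, beside 0.909% of all thresholded summits. The next step of the list, ranks 2751 to 5500, held 12 more summits, 5 at neur, 3 at kuz, 2 at Delta and 1 each at Ser and fng. For all of those at neur, kuz and fng, the nearest TSS was that of another gene. These were hyx or tgo at neur, CG9254, B4 or ics at kuz, and Sems at fng. At Delta and Ser the nearest TSS was that of the gene itself. The strongest of the 12 (rank 2862, signal 114) was 569 bp into neur from its outer start site, but in the promoter of hyx, whose TSS was nearer. It ranked 1759 in replicate 2 and 6268 in replicate 1.

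All 4 neur summits, both kuz summits and 1 at N had a motif match, and the other 8 had none. Among the motifs searched, CACGTG is an E-box form bound by repressors of the Hairy and E(spl) type. Such repressors also bind the related CACGCG. The N-box was searched as CACNAG. Another E-box form searched was CATATG. Proneural E-boxes were searched as GCAGCTG, with the variant GCAGGTG counted under the same motif. GAGAGAG is read by GAGA factor. The core of the Su(H) site was searched as TGGGAA. The Zelda site was searched as CAGGTAG. No motif contains another. Both strands were read, and a palindrome was counted once. CACGTG occurred within 50 bp of 2 of the 15 summits, both in the first intron of neur and 1 of them with 2 copies, beside 3.35% of all thresholded summits. CACGCG occurred at 2, the strongest neur peak and the kuz promoter, beside 8.47%. The strongest neur peak also held GCAGCTG, read on the other strand as CAGCTGC, which occurred at 1 of 15 beside 5.82%. CACNAG was at 2 of 15, the peak at the B4 start site upstream of kuz and the neur promoter, beside 17.1%, and CATATG at 1 beside 3.64%.

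The GAGA, Su(H) and Zelda motifs had no match in the 15 windows, beside 9.24%, 4.95% and 0.982% of all thresholded summits, in that order. With 100 bp on either side each of these motifs was at 1 of the 15, and no share over all thresholded summits was taken for that wider window. The 7 of 15 windows with a match compare with 44.0% of all thresholded windows. GC content of the 15 windows had a median of 49.5%, with a range from 40.6% to 62.4%, and that of all thresholded windows a median of 51.5%. In the 100 bp before the start sites, the Delta sequence held a GAGAGAG and the neur sequence a CACNAG, while that of N held none of the 8. Over 19253 protein-coding start sites, GAGAGAG was found in 3.47% of such stretches and CACNAG in 11.1%. A match describes letters in a window and does not show a bound site.

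Of 20 other genes that act on the receptor or its ligands, 8 had a thresholded summit, where 30.4% of all protein-coding genes did. The strongest was numb, a Notch antagonist in asymmetric division, with a signal of 349 and its summit 15 bp from a TSS, ranked 171 and 293 in replicates 1 and 2. It was followed by spdo (259, 1788 bp upstream), a membrane protein gene of asymmetric division, and Nedd4 (213, 50 bp from a TSS), a ubiquitin ligase gene related to Su(dx). The next were rumi (202), whose product adds glucose to Notch, ago (163), an F-box gene, and frc (156), a sugar transporter gene. The summits at rumi and ago were nearer to the TSS of CG17141 (2 bp) and CG1265 (4 bp). Of the γ-secretase genes, aph-1 had a summit (signal 130, 18 bp from the TSS), while pen-2 and nct (Nct in the annotation) had none, and neither did the ADAM protease gene Tace or the endocytosis genes lqf, aux, Chc and shi.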

How the data were processed

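E(spl)mδ-HLH ChIP-seq was analysed from 4 peak lists that the authors deposited on dm6 in narrowPeak layout. Per the deposited file listing, 1 list was derived from each replicate and 1 from both pooled, each together with the same further file, read here as the control, and the thresholded list passed an irreproducible discovery rate limit. Aligner, caller and that limit: not given in the sources used here. Fragments were 200 to 800 bp, per the labels. The deposited signal value is a score of enrichment per peak, used only within a list. The pooled and replicate lists are named as peaks and background, the input for that limit. The −log10 q values deposited by the authors were at their ceiling in 2029 of 2750 thresholded peaks and in all 15 described here, so they were not used to rank. At the best pooled peaks of Ser, Su(dx) and Psn they were 2.06, 1.48 and 0.653. The deposited summit offset was another column, in bp. Depth is unknown. Intervals cover only the counting error and take genes as independent, although neighbouring windows can share a summit.

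Thresholded peaks had the coordinates and signals of 2750 pooled peaks. The replicate rank of a peak is that of the strongest replicate peak sharing at least 1 bp with it. Coordinates are 1-based. Ensembl gene models for BDGP6 were used with the Release 6 sequence of NCBI (16193 of 16213 start codons read ATG). 1 of the 20 other Notch genes was matched under a newer symbol. Every member is named with its thresholded peaks, members without any by their best pooled peak, and up to 6 other Notch genes by highest signal; aph-1 and the genes without a summit were added as examples after their values were seen. Members, lists and motifs were chosen with earlier results of these data known. There is 1 group, so nothing was tested and shares are descriptions. Gene windows, nearest start sites, overlaps and motif matching were checked on simulated peaks. Python 3.11.15, numpy 2.4.6, pandas 2.3.3, scipy 1.17.1 and matplotlib 3.10.9 were used. Alternatives covered the window, the threshold, single replicates, the assignment of summits, overlap, motif windows and promoter width.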

Additional observations from a re-analysis of the deposited data

How the results depend on the processing

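The number of genes with a summit stayed between 6 and 8 of 10 over the 9 alternatives tried for it. Ser, Su(dx) and Psn had no summit in any of them except Ser in replicate 2. fng lost its summit among the strongest 1375 peaks and within 2 kb of a TSS, and dx lost it with the gene body alone and with the nearest TSS. The background moved more. It was 21.1% of protein-coding genes with 2 kb on each side, 43.0% with 10 kb, 9.06% with the gene body alone and 17.9% among the strongest 1375 peaks. From single replicates it was 29.8% to 31.4%. These shares are over protein-coding genes of every length. Shares over genes with windows as long as those of the 10 genes were not taken for the alternatives. The 15 peaks became 9 with the gene body alone, 9 among the strongest 1375 and 9 with the nearest TSS, and came to 15 from either replicate, though from replicate 2 with 1 peak at Ser, 3 at Delta, 3 at neur and 1 at fng. The 8 other Notch genes became 3 with the gene body alone and 5 among the strongest 1375. These settings admit fewer positions or fewer peaks by construction. With summits within 100 bp, all 15 peaks still had a match in both replicates. A match by the nearest summit was added after seeing the data. With it, 1 of the 15 changed its match, the peak beyond fng, from rank 3809 to 7617 in replicate 2. The count high in both replicates was 11 either way. CACNAG rose from 2 to 4 windows with 100 bp on either side or the whole peak, and CACGTG stayed at 2. For these windows no share over all thresholded summits was taken. The depth behind each list is unknown, so a summit missing at Ser, Su(dx) or Psn was not called at this depth and is not shown to be absent.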
